A study of Mus musculus with 7 samples.

Results

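Interferons signal through paired receptor chains to STAT and IRF transcription factors, which bind short DNA elements before their target genes. In the type I pathway, a complex that holds Stat2 and Irf9 binds the interferon-stimulated response element (ISRE), while the response to interferon gamma uses the gamma-activated site (GAS). Many target genes, such as Isg15 and the Ifit genes, are held at a low level in resting cells and are induced strongly by interferon, and regulatory T (Treg) cells carry both kinds of receptor.

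The 41 genes described here are 4 interferon receptor chains, 7 transcription factors, 21 antiviral effectors, and 9 effectors that are GTPases or act in antigen processing. Their chromatin accessibility was read from ATAC-seq, in which a transposase cuts open DNA and the cuts pile up as peaks. A peak was given to a gene when it touched the gene, or when it lay within 100 kb and that gene was the nearest protein-coding gene. This gave 150 of the 50213 peaks in the deposited table, held by 37 of the 41 genes. Of these peaks, 72 touched the gene and 78 were placed by distance, and distance alone does not tell what gene a site controls. No peak fell to Ifi44, Ifit3, Oas2 or Oasl1. The receptors held 36 peaks, the factors 42, the antiviral effectors 44 and the GTPases and antigen-processing genes 28. One interval, counted once, spans the starts of both Psmb9 and Tap1.

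The cells were Treg cells sorted from mouse spleens, CD4+, CD45.2+, without CD45.1, and carrying YFP expressed with Foxp3. They came from mixed bone marrow chimeras, in which CD45.1+ marrow was given in equal parts with marrow of the genotype studied. In the 4 WT libraries that marrow was Foxp3Cre, and in the 3 KO libraries it was Foxp3Cre with Opa1 fl/fl, so both groups carry the Cre, driven from Foxp3 and thus active in Foxp3-expressing cells, and both developed beside CD45.1+ cells. Opa1 encodes a GTPase of the inner mitochondrial membrane needed for its fusion. The age and sex of the mice are not in the labels.

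Total counts in peaks ran from 1534394 to 3384325 per library, and the interferon genes' peaks took 0.309% to 0.333% of them. Levels are given as CPM, which sets the counts of every library on the same total. A chi-square test of halved counts over 36418 peaks found no difference beyond counting error between the second and the third WT library (p = 0.0843). Over the 11332 deepest of these peaks the p was 0.0346, so a small difference was seen there, though every other pair within a genotype differed more. To be cautious, both count as 1 sample in each mean ± SD (n = 3 for WT) and as separate libraries in the tests. Over the 4 WT libraries taken singly, the SD was larger at 80 of the 124 tested interferon gene peaks, with a median ratio of 1.07. Whether each library is 1 mouse is not stated, and p-values measure the spread between these libraries. The peak at the Opa1 start did not differ (log2 fold change -0.06, edgeR adjusted p = 0.955). It does not check the labels, because the floxed part of the gene is not given. Peaks of all 10 Treg marker genes were present, with Foxp3 at 66.5 to 94.8 CPM summed over its 3 peaks.

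The DNA before the starts of these genes shows the elements that interferon factors read, so some of the promoters that carry them are printed first. The search covered the 250 bases before each start, on both strands, for the ISRE core GAAANNGAA (TTCNNTTTC on the other strand) and the GAS core TTCNNNGAA, which reads the same on both strands. RefSeq promoters of build GRCm38.p6 were at hand for 34 of the 41 genes. The ISRE core was found for 15 of these 34 genes. By promoter it was in 36.6% of the 41 member promoters (some genes have several starts), against 7.13% of all 32851 promoters of the same length. The antiviral promoters below are examples from the classical type I targets, with cores in capitals. Their nearest core begins 66 (Isg15), 69 (Oas3), 84 (Ifit1), 102 (Ifit3) and 119 (Rsad2) bases before the start. Ifih1 (112) and Bst2 (124) also held the core and are not shown. Each sequence ends at the base before the gene start and reads 5′ to 3′ along the gene's strand.
Isg15, chr4:156200819-156200948, minus strand: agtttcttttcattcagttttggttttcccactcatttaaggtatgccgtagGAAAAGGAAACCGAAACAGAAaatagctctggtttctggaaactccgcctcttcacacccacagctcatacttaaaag
Ifit1, chr19:34640759-34640888, plus strand: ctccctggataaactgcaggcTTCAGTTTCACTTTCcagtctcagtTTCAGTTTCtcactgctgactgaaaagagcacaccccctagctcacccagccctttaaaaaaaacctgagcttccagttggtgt
Ifit3, chr19:34583349-34583528, plus strand: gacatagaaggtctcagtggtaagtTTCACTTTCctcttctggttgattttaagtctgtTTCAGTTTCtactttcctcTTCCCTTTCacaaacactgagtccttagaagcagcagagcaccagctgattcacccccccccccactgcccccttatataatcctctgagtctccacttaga
Rsad2, chr12:26456453-26456582, minus strand: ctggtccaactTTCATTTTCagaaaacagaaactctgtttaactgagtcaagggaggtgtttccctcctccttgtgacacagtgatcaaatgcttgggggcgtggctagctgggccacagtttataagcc
Oas3, chr5:120777660-120777789, minus strand: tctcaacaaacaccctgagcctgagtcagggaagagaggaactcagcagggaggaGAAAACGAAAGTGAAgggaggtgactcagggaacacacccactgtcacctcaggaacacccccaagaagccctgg
Isg15 and Ifit1 have 3 cores each, partly overlapping, and those of Isg15 begin 78, 72 and 66 bases before the start.

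By role, the ISRE core was found for 6 of 9 GTPase and antigen-processing genes, 7 of 14 antiviral effectors, 2 of 7 factors (Irf2 and Stat2) and 0 of 4 receptors. No test was made of these shares, which rest on few genes. Promoters of 4 GTPase genes are printed as examples. Their nearest core begins 24 bases before the start for Irgm1, 34 for Igtp, 38 for Gbp3 and 58 for Gbp2. Gbp7 (52) and Gbp5 (164) also held the core and are not printed.
Irgm1, chr11:48871421-48871550, minus strand: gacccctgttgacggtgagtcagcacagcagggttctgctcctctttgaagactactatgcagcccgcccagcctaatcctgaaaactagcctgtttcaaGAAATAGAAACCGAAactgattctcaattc
Igtp, chr11:58199426-58199555, plus strand: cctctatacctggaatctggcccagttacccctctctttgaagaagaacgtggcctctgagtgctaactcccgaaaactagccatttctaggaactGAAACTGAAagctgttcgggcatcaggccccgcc
Gbp3, chr3:142559914-142560043, plus strand: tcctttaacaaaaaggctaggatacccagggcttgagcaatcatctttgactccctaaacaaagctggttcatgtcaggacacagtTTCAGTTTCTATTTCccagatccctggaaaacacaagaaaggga
Gbp2, chr3:142620533-142620662, plus strand: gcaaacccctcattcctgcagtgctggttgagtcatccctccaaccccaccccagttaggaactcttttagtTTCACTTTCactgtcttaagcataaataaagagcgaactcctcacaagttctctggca

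The GAS core was found for 11 of the 34 genes, in 26.8% of member promoters against 7.02% of all promoters. Irf1 and Irf8, whose genes interferon gamma is known to induce through this element, are shown with it in capitals.
Irf1, chr11:53769884-53770013, plus strand: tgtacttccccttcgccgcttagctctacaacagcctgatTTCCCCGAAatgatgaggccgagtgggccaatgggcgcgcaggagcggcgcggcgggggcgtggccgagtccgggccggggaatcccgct
Irf8, chr8:120736178-120736357, plus strand: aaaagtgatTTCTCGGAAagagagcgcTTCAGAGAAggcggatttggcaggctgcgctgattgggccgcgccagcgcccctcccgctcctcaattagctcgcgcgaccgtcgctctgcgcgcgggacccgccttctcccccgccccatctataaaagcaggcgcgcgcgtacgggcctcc
Only in the Bst2 promoter did an ISRE and a GAS core overlap among the member promoters searched. A match is a run of letters and not a measured binding site.

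**Figure D1:**
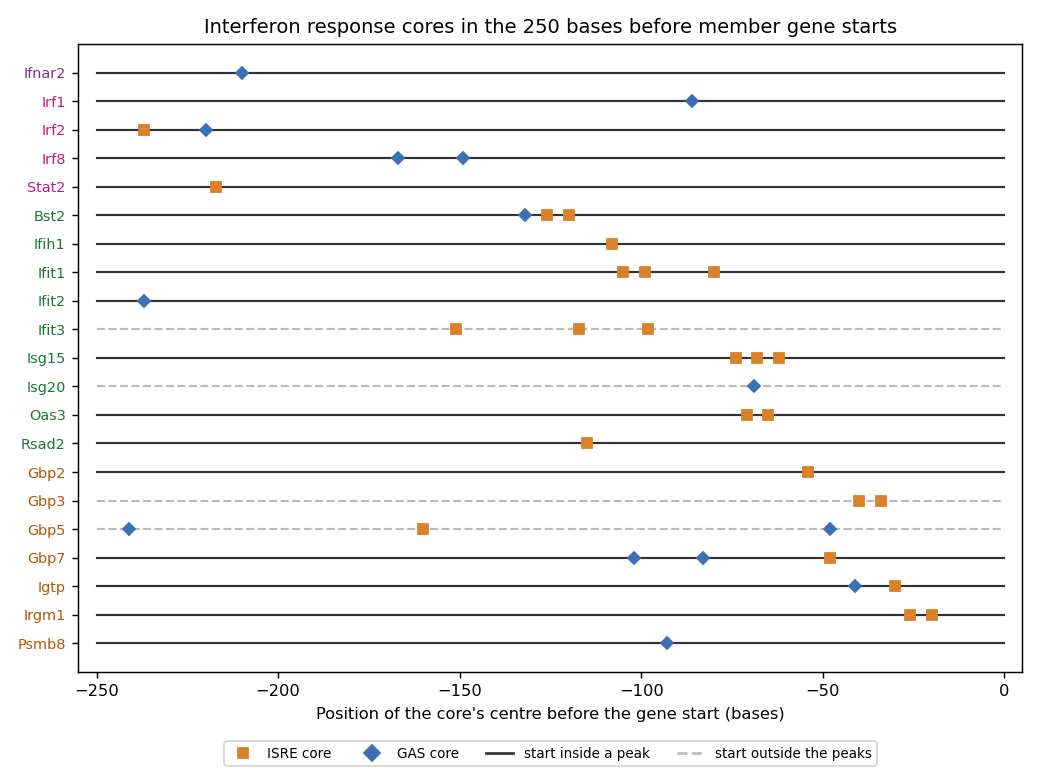
Positions of ISRE cores (squares) and GAS cores (diamonds) before the starts of the member genes that hold either one, with the horizontal axis in bases before the start and names coloured by role. Solid lines are starts inside a peak and dashed lines starts outside the peaks. Most ISRE cores of the GTPase genes lie within the last 60 bases, and those of Irf2 and Stat2 lie beyond 200.

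Most of these promoters were open in WT Treg cells. A peak covered a start of 28 of the 34 genes, and the 27 peaks that did so had a median level of 60 CPM per kb of peak, against 65.1 for all 7680 peaks over a gene start. Those with an ISRE core before the start (12 peaks) had a WT median of 84.4 CPM per kb and those without one (15 peaks) 54.8. Not divided by peak width, the medians were closer, at 34.4 and 31.4 CPM. The ISRE core of 3 genes lay before a start outside the peaks. They were Ifit3, which had no peak at all, the upstream start of Gbp3, and Gbp5, whose peak ended 13 bases before the start. The core of Gbp5, 164 bases before the start, itself lay inside that peak.

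Between KO and WT, no interferon gene peak passed the test. Of the 150 peaks, 124 had enough counts to be tested and 26 did not. With edgeR's quasi-likelihood test adjusted over all 38041 tested peaks, 0 of the 124 had an adjusted p under 0.05, and the smallest was 0.287. Among all tested peaks, 33 passed, which is 0.0867%, so a count of 0 among 124 does not set these genes apart. An unadjusted p under 0.05 was found for 8 of the 124 peaks (6.45%), against 9.47% of all tested peaks. Of these 8, 7 were higher in KO and 1 lower, while all tested peaks with such a p split into 1802 higher and 1801 lower. Peaks over a gene start leaned higher in the whole table, with 465 higher and 188 lower at such a p. Of the 7 higher member peaks, 2 cover a start. DESeq2 and limma-voom also called 0 of the member peaks they tested.

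Directions were mixed among the 124 peaks, with 66 higher and 58 lower in KO. The median log2 fold change (KO over WT) was 0.018, against -0.001 over all tested peaks. That small median turned negative when libraries were scaled by totals only (-0.011, beside -0.029 over all peaks), so there it stayed above the rest by a like amount. It fell below the median of all peaks when a mean count of at least 20 was required (-0.009 beside -0.001) and when counts were halved (-0.021 beside -0.007). In 12 peaks (9.68%) the KO and WT libraries did not overlap, against 9.40% of all tested peaks. Of these 12, 9 were higher in KO and 3 lower. All tested peaks without overlap split into 1916 higher and 1660 lower, and those of them over a gene start into 465 higher and 205 lower. The 95% interval of the difference lay within 2-fold for 86 of the 124 peaks and within 1.5-fold for 37. For the other 38 peaks a 2-fold difference was not excluded at this depth.

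**Figure D2:**
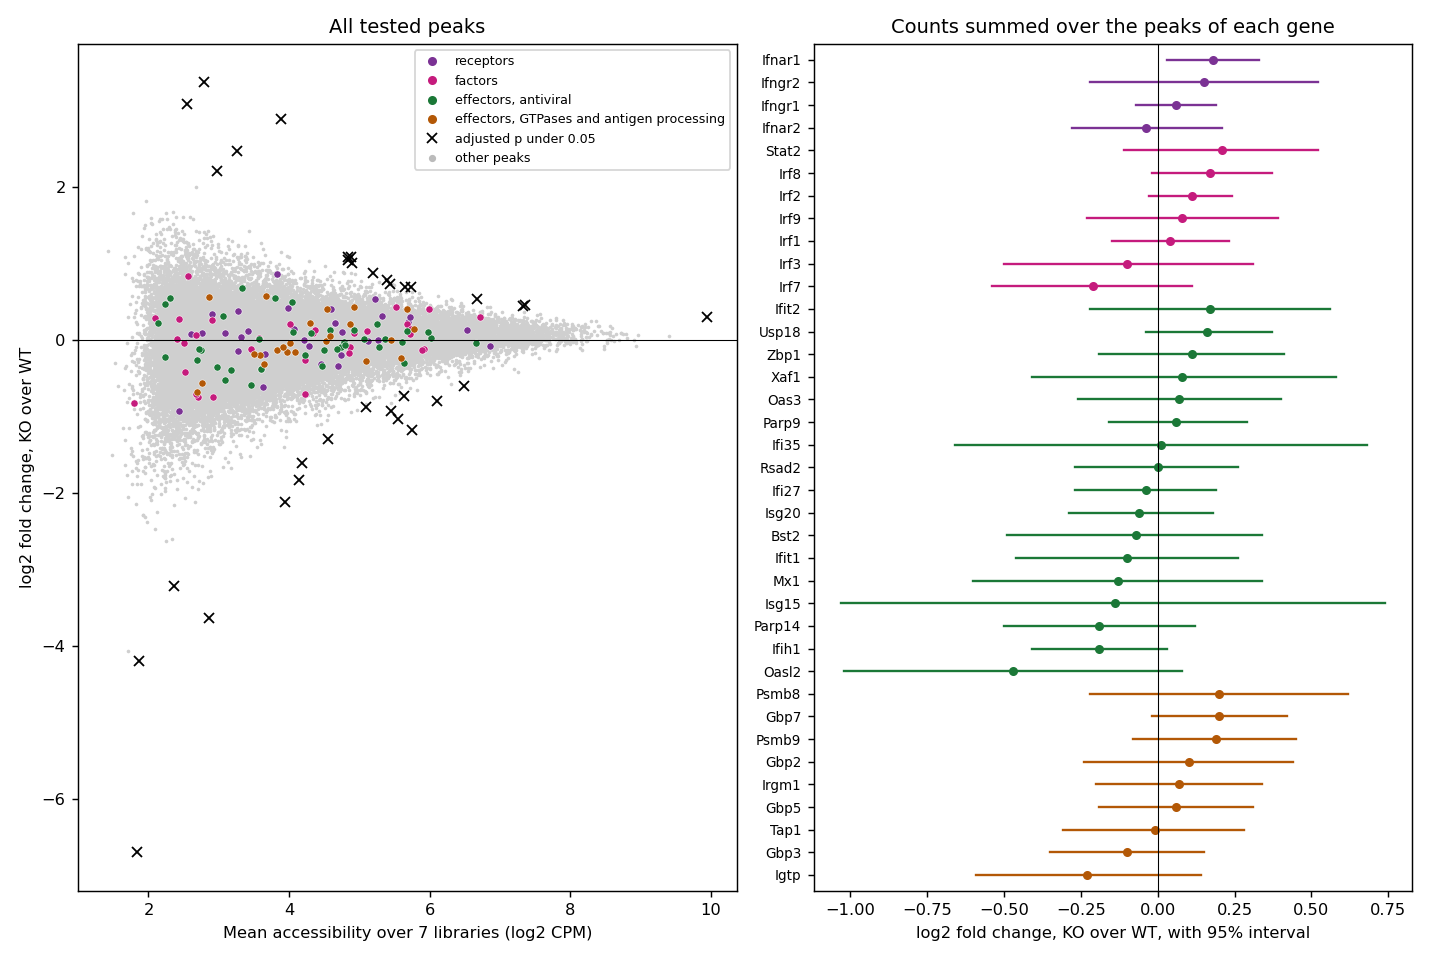
Left, log2 fold change of KO over WT against mean accessibility (log2 CPM) for all tested peaks, with interferon gene peaks coloured by role and called peaks as crosses. Right, log2 fold change with its 95% interval for counts summed over the peaks of each of the 37 genes, coloured by the same roles, where the interval excludes 0 only for Ifnar1.

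Among the receptor genes, the summed WT level was 436 CPM for Ifngr1 (18 peaks) and 247 for Ifnar1 (9 peaks). It was 93 for Ifnar2 (7 peaks) and 34.3 for Ifngr2 (2 peaks). Such sums depend on how many peaks a gene was given, and some of those of Ifngr1 were placed by distance from up to 99.9 kb away. Ifngr1, the ligand-binding chain of the interferon gamma receptor, had the most abundant peak of all, over its start (chr10:19591611-19592378). Its level was 127.8, 127.7, 106.0 and 111.3 CPM in WT replicates 1 to 4 and 110.7, 115.3 and 113.6 in KO replicates 1 to 3. The KO values lay inside the WT range (log2 fold change -0.07, 95% interval -0.28 to 0.14). Ifnar1, the first chain of the type I receptor, had 90.2, 82.1, 89.2 and 92.6 CPM over its start in WT (chr16:91484871-91485393) and 107.7, 80.5 and 103.2 in KO. KO replicates 1 and 3 were above every WT library there and KO replicate 2 below them all (log2 fold change 0.14, 95% interval -0.10 to 0.37).

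The partner chain Ifnar2 was most open 5805 bases before its start (chr16:91366556-91366978), at 35.6 ± 2.49 CPM in WT and 34.8 ± 1.86 in KO (SD, n = 3 each). Its start peak was lower, at 9.82 ± 0.621 CPM in WT (SD, n = 3). For Ifngr2, the signalling chain of the gamma receptor, no peak covered the start, and its most abundant peak lay 13289 bases before the gene (chr16:91533019-91533770). It held 23.5 ± 3.07 CPM in WT and 19.3 ± 2.72 in KO (SD, n = 3 each). All 4 receptor genes therefore had accessible sites, and a peak covered the start of Ifngr1 but not that of Ifngr2. Counts are given only inside peaks, so the level at the Ifngr2 start is not known.

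Of the 31 receptor peaks tested, 20 were higher and 11 lower in KO. This is 64.5% higher, against 49.8% of all tested peaks. Ifnar1, Ifnar2 and Ifngr2 lie between 90 and 93 Mb of chromosome 16, where 60.4% of all tested peaks were higher. The median log2 fold change was 0.094, against -0.001 over all tested peaks. The smallest unadjusted p of any member peak belonged to a site 9.01 kb before the Ifnar1 start (chr16:91475795-91476206). It had 29.7, 31.9, 37.1 and 27.3 CPM in WT and 51.5, 36.6 and 47.9 CPM in KO. KO replicates 1 and 3 were above all WT libraries and KO replicate 2 lay within their range. The log2 fold change was 0.54 (SE 0.18), with an edgeR adjusted p of 0.287. A second site, 20 kb before the start (chr16:91464707-91465194), showed the same order, with 40.0, 46.9, 55.6 and 49.6 CPM in WT and 64.6, 47.6 and 64.1 in KO (log2 fold change 0.30, edgeR adjusted p = 0.535).

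Within Ifngr2, 6635 bases after its start (chr16:91553694-91554052), the peak had 9.29, 7.82, 11.6 and 13.2 CPM in WT and 21.4, 17.1 and 18.8 in KO. Each KO library exceeded each WT library at this weak site. The log2 fold change was 0.86 (95% interval 0.28 to 1.44, edgeR adjusted p = 0.288), opposite in sign to that of the gene's other peak (-0.31).

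**Figure D3:**
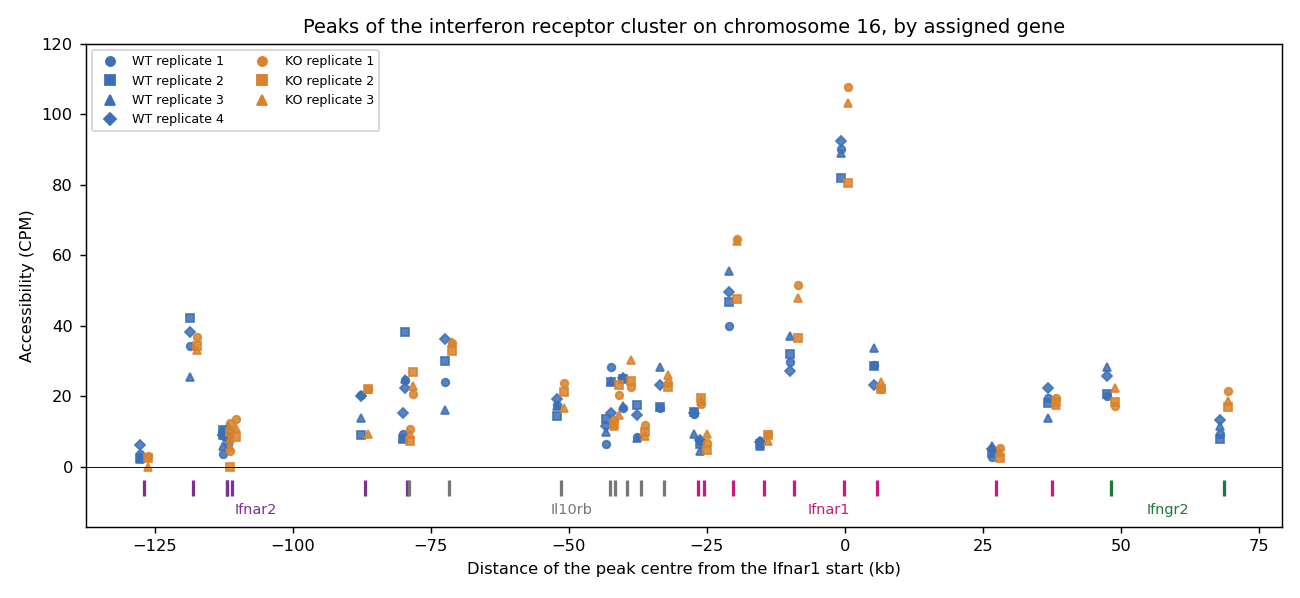
CPM in each library for the peaks of Ifnar2, Il10rb, Ifnar1 and Ifngr2, a cluster of receptor genes on chromosome 16, by distance of the peak centre from the Ifnar1 start in kb. Ticks below the axis mark the assigned gene. The Ifnar1 start is the highest peak, and the sites before it at -9.21 and -20.3 kb have 2 KO libraries above all WT libraries.

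Ifnar1, Ifnar2 and Ifngr2 lie on chromosome 16, 61.7 to 61.9 Mb from Opa1, and so do Mx1 (67.8 Mb), Parp14 (6.17 Mb) and Parp9 (6.28 Mb). DNA linked to a modified locus can differ between strains. On this chromosome 13 of 1583 tested peaks were called (0.821%, against 0.0867% of all tested peaks). These 13 lay between bases 45389746 and 97204562, while Opa1 begins at base 29579281. The 23 tested member peaks of chromosome 16 had a median log2 fold change of 0.041. The median was 0.017 for the 101 member peaks elsewhere and 0.034 for all tested peaks of the chromosome. In the stretch from 90 to 93 Mb that holds the receptors, 0 of 111 peaks were called by edgeR, 14 had an unadjusted p under 0.05 (12.6%, against 9.47% of all tested peaks), and the median was 0.125. The part of linkage in the receptor values was not tested.

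Of the 7 factors, Irf2, Irf8 and Irf1 had several accessible sites and the others 1 or 2. Irf2, which competes with activating IRFs for the ISRE, held 23 peaks, the most of any member. Its start peak (chr8:46739351-46739933) had 103.2, 84.7, 94.4 and 98.1 CPM in WT and 112.8, 127.5 and 117.2 in KO. All KO libraries were above all WT libraries, by a log2 fold change of 0.31 (SE 0.11) that did not pass the test (edgeR adjusted p = 0.328). Near the 3′ end of the gene, 104895 bases after the start (chr8:46844640-46845451), KO replicate 3 stood out with 93.8 CPM, while KO replicates 1 and 2 had 60.1 and 69.5 and WT 50.2, 66.4, 51 and 54.6 (log2 fold change 0.41).

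The 1 lower peak among the 10 with the smallest unadjusted p also belonged to Irf2, by distance, and lay 12044 bases beyond its end (chr8:46859502-46860058). It had 17.2, 27.4, 20.8 and 25.3 CPM in WT and 17.3, 15.9 and 7.81 in KO. KO replicate 3 was the lowest library, and the groups overlapped by a narrow margin (log2 fold change -0.70, 95% interval -1.24 to -0.16, edgeR adjusted p = 0.376). Sites of Irf2 thus went in both directions, and its counts summed over all peaks gave a log2 fold change of 0.11 (95% interval -0.03 to 0.24).

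Irf8, a factor best known from myeloid, dendritic and B cells, had 38.6, 39.7, 42.3 and 39.5 CPM over its start in WT (chr8:120735990-120736495) and 53.3, 47.0 and 62.5 in KO. The WT libraries were close together and every KO library was higher. The log2 fold change was 0.44 (SE 0.16) with an edgeR adjusted p of 0.352. Since Irf8 is shared with other cell types, their markers were read beside it. B cell markers went the other way, with 60.79 to 76.21 CPM summed over 10 peaks in WT and 44.63 to 54.29 in KO, without overlap. Peaks were found for 4 of the 8 B cell genes and those without one included the defining genes Cd79a, Cd79b and Ms4a1. Myeloid and dendritic cell markers (7 of 12 genes with peaks, none for Csf1r, Lyz2, Adgre1, Mpo or Xcr1) gave 81.42 to 104.1 CPM in WT and 74.69 to 83.88 in KO. Their part in the Irf8 value was not tested.

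The other factors varied without a common direction. Irf1, an activator induced by interferon gamma, was most open 5774 bases before its start (chr11:53763314-53764240), at 64.0 ± 7.40 CPM in WT and 58.8 ± 8.87 in KO (SD, n = 3 each), and its start peak had 50.8 CPM in WT with a log2 fold change of 0.15. Stat2, a signal transducer of the type I receptor, had 47.8 ± 6.64 CPM in WT and 55.2 ± 5.34 in KO over its start (chr10:128270246-128270656). Irf9, which gives the Stat2 complex its DNA binding, had 49.1 ± 8.06 and 54.3 ± 2.70 (chr14:55603852-55604597). Irf7 and Irf3, which switch on the type I interferon genes, had 31.4 ± 6.21 and 30.7 ± 2.69 CPM in WT and 27.1 ± 4.10 and 28.2 ± 2.83 in KO at their starts (chr7:141265776-141266630 and chr7:44997143-44997792). The difference at each of these peaks was within the scatter of the libraries. Of 32 factor peaks tested, 18 were higher and 14 lower, with a median log2 fold change of 0.049.

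**Figure D4:**
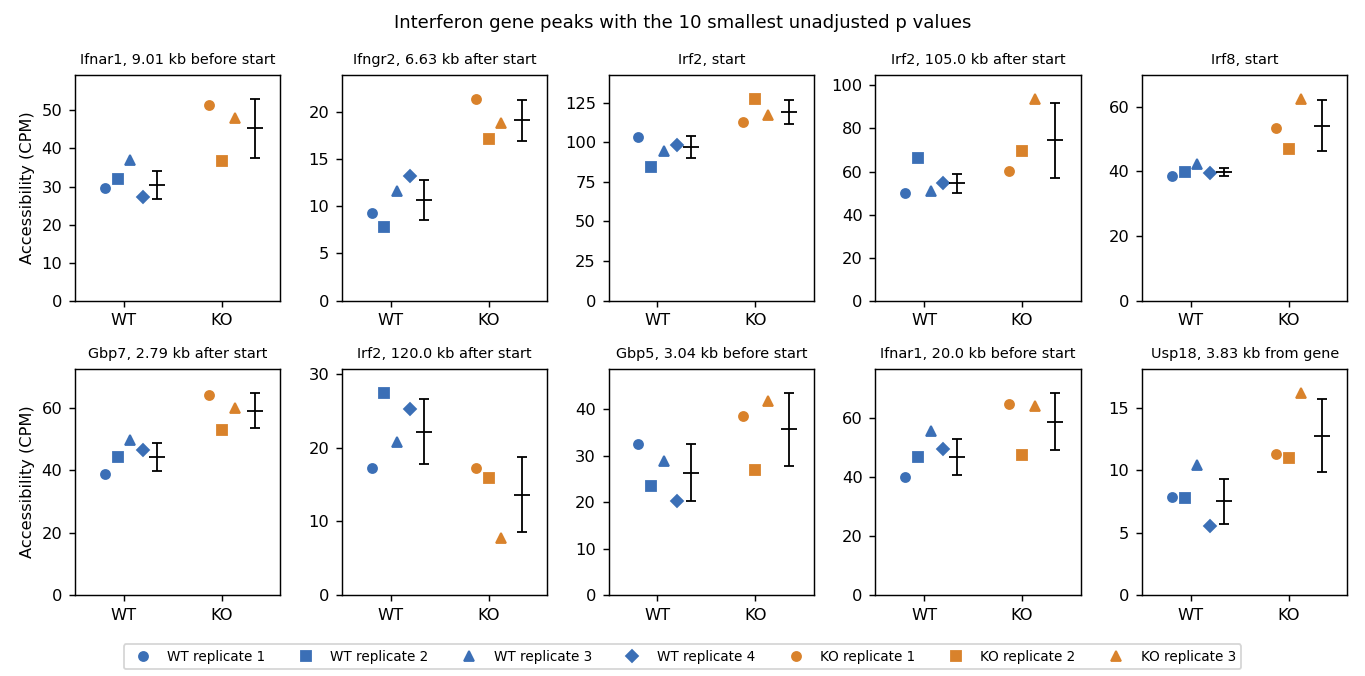
Accessibility (CPM, axis from 0) in each library for the 10 member peaks with the smallest unadjusted p, with mean ± SD in black (n = 3 per group, WT replicates 2 and 3 averaged). KO is higher in 9 of the 10 and the groups do not overlap in 5, but none passes the test over all peaks. The peaks were picked by this p, so separation of the groups is partly built into the choice. Of all tested peaks with an unadjusted edgeR p under 0.05, 1802 are higher in KO and 1801 lower. Of those over a gene start, 465 are higher and 188 lower.

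The antiviral effectors were open at graded levels and did not shift together. The highest were Ifi27 (chr12:103434004-103434435, within the gene) at 101.0 ± 11.1 CPM in WT, Rsad2, which encodes the antiviral enzyme viperin, at 63.8 ± 4.93 over its start (chr12:26456303-26456749), and Parp9 (chr16:35939645-35940107) at 59.1 ± 5.88 (SD, n = 3 each). The KO means were 99.9 ± 2.28, 66.1 ± 4.19 and 65.2 ± 8.37 CPM (SD, n = 3 each). Parp9 varied more in WT than its SD shows, since replicates 2 and 3 had 80.1 and 51.5 CPM, and over the 4 libraries taken singly it had 60.8 ± 13.1 (SD, n = 4). At the low end stood Isg15, the ubiquitin-like modifier, despite its 3 ISRE cores. Its start peak (chr4:156200722-156200935) had 5.58, 7.17, 10.4 and 4.55 CPM in WT and 4.76, 7.32 and 7.29 in KO, with wide overlap (log2 fold change -0.13, 95% interval -1.01 to 0.76).

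Ifit1, which binds foreign RNA ends, had 40.0, 33.9, 48.6 and 37.4 CPM in WT and 42.6, 32.9 and 35.9 in KO at its start (chr19:34640589-34640990). Its neighbour Ifit2 had 23.7 ± 3.47 CPM in WT and 25.3 ± 1.55 in KO (chr19:34550483-34551309, SD, n = 3 each). Both sets of libraries overlapped, and the third family member, Ifit3, had none of the peaks. Thus promoters with similar ISRE cores, printed above, ranged from no peak to a clear one in the same cells.

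Among RNA sensors and RNA-degrading effectors, Ifih1, which encodes the double-stranded RNA sensor MDA5, was lower at its start in every KO library. The peak (chr2:62645952-62646415) had 55.3, 50.8, 51.5 and 58.7 CPM in WT and 50.0, 42.7 and 38.6 in KO (log2 fold change -0.30, 95% interval -0.61 to 0.02, edgeR adjusted p = 0.555). The gap between the groups was narrow, from 50.0 to 50.8 CPM. Isg20, an exonuclease, gave 49.7 ± 6.26 CPM in WT and 48.7 ± 7.23 in KO (chr7:78913766-78914127, SD, n = 3 each). Oas3, a synthetase of the oligoadenylates that activate RNase L, was most open 1614 bases inside the gene (chr5:120775351-120776045), at 34.5 ± 5.85 CPM in WT and 41.3 ± 3.91 in KO. Its start peak, with the cores printed above, was weaker, at 12.1, 13, 10.4 and 4.05 CPM in WT and 8.63, 6.10 and 5.21 in KO (log2 fold change -0.52). Oasl2, a relative of the OAS enzymes, had 5.58, 14.3, 16.2 and 15.7 CPM in WT and 9.52, 8.54 and 7.29 in KO near its start (chr5:114897216-114897566), where WT replicate 1 fell below every KO library.

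Usp18 removes Isg15 from proteins and damps the type I receptor, and it had 8 peaks. The most abundant (chr6:121245691-121246045) had 36.2, 26.1, 24.3 and 27.8 CPM in WT and 26.2, 46.4 and 25 in KO, with KO replicate 2 far above the rest. A weak site 3826 bases outside the gene (chr6:121241860-121242080) had 7.90, 7.82, 10.4 and 5.56 CPM in WT and 11.3, 11 and 16.2 in KO. The groups did not overlap there, and the log2 fold change of 0.68 had a 95% interval of -0.02 to 1.38 (edgeR adjusted p = 0.542).

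The remaining antiviral genes differed by log2 fold changes from -0.12 to 0.12 at their most abundant peaks. They were Bst2, the virus tether tetherin, at 29.2 ± 5.59 CPM in WT, Zbp1, a sensor of Z-form nucleic acid, at 46.8 ± 15.4, Parp14, an ADP-ribosyltransferase, at 25.6 ± 6.20, Xaf1, a promoter of apoptosis, at 20.1 ± 5.67 and Ifi35 at 11.3 ± 2.59 (SD, n = 3 each). Mx1, which in this reference strain is annotated as a transcribed pseudogene, took 1 peak that touches it (chr16:97462804-97463161), with 21.9 ± 5.11 CPM in WT and 21.7 ± 3.32 in KO. Over all 38 antiviral peaks tested, 18 were higher and 20 lower, with a median log2 fold change of -0.028. An unadjusted edgeR p under 0.05 was found for 0 of these 38, against 9.47% of all tested peaks. The other roles had 2 of 31 receptor peaks, 4 of 32 factor peaks and 2 of 23 GTPase and antigen-processing peaks. No test was made of these shares, which rest on few peaks.

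**Figure D5:**
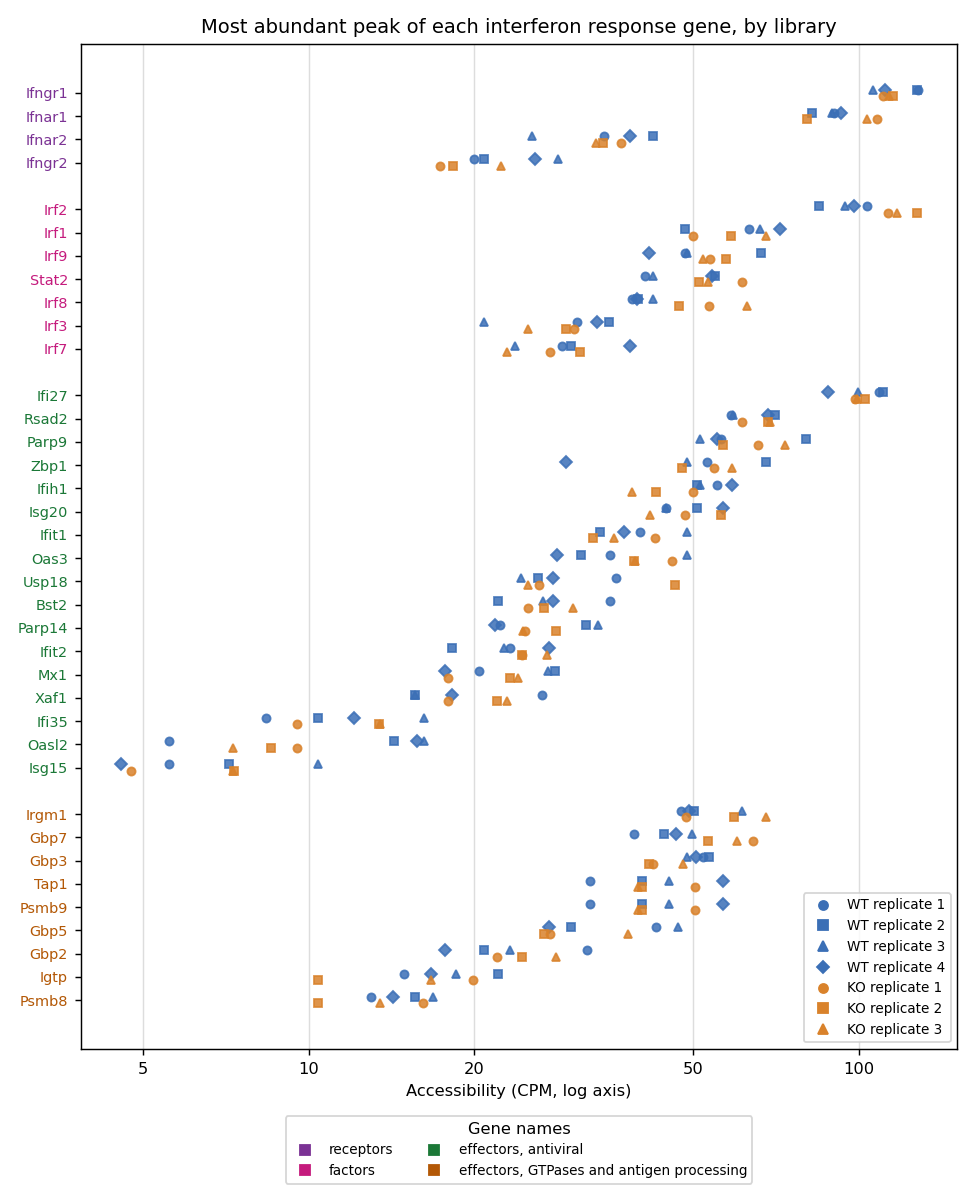
CPM on a log axis in each of the 7 libraries for the most abundant peak of each of the 37 genes, grouped and coloured by role, WT above and KO below each gene's line. The symbols of the 2 genotypes intermix for most genes, and levels run from 4.55 CPM in a library of Isg15 to 127.8 in one of Ifngr1.

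Among the guanylate-binding proteins, GTPases that attack the vacuoles of intracellular pathogens, neighbouring sites on chromosome 3 went in different directions. Gbp7 had 39.0, 44.3, 49.8 and 46.5 CPM in WT and 64.3, 53.1 and 59.9 in KO at a site 2786 bases after its start (chr3:142533122-142533633). All KO libraries were higher (log2 fold change 0.40, SE 0.15, edgeR adjusted p = 0.365). Gbp3, by contrast, had 52.0, 53.4, 48.6 and 50.6 CPM in WT and 42.3, 41.5 and 47.9 in KO over its second start (chr3:142560275-142560960), with all KO libraries lower by a small margin (log2 fold change -0.23, edgeR adjusted p = 0.693).

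Neighbouring sites before the Gbp5 start had fold changes of opposite sign. The peak 3035 bases before the start (chr3:142493531-142493899) had 32.5, 23.4, 28.9 and 20.2 CPM in WT and 38.4, 26.8 and 41.7 in KO (log2 fold change 0.44, edgeR adjusted p = 0.492). The one that ends 13 bases before it (chr3:142496511-142496921) had 42.8, 30.0, 46.9 and 27.3 CPM in WT and 27.4, 26.8 and 38.0 in KO (log2 fold change -0.28). The groups overlapped at both. Gbp2 had 23.9 ± 7.37 CPM in WT and 24.9 ± 3.08 in KO over its start (chr3:142620424-142620832, SD, n = 3 each).

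Irgm1 and Igtp are immunity-related GTPases of the same defence. Irgm1 had 47.4, 50.2, 61.4 and 49.1 CPM in WT and 48.5, 59.2 and 67.7 in KO over its start (chr11:48871260-48871745), and Igtp 17.3 ± 2.78 in WT and 15.7 ± 4.86 in KO (SD, n = 3 each) at a site 3405 bases outside the gene (chr11:58210997-58211401). In the major histocompatibility region, the interval that spans the facing starts of the immunoproteasome gene Psmb9 and the peptide transporter gene Tap1 (chr17:34187199-34187886) had 32.5, 40.4, 45.2 and 56.7 CPM in WT and 50.3, 40.3 and 39.6 in KO. Its log2 fold change was 0.00 (95% interval -0.34 to 0.35). Psmb8, another immunoproteasome subunit, had 14.5 ± 1.62 CPM in WT and 13.3 ± 2.86 in KO at a site 296 bases outside the gene (chr17:34201750-34202039, SD, n = 3 each). Its start peak (chr17:34198172-34198474) went the other way, with 11.2, 8.47, 7.53 and 14.2 CPM in WT and 15.5, 20.7 and 11.5 in KO. Only KO replicate 3 lay among the WT libraries there (log2 fold change 0.58, 95% interval -0.04 to 1.21, edgeR adjusted p = 0.568). Of the 23 tested peaks of the GTPase and antigen-processing genes, 10 were higher and 13 lower, with a median log2 fold change of -0.039.

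Gene starts were also read apart. The 27 member peaks over a start had a median log2 fold change of 0.033, against 0.044 for all 7408 tested peaks over a start. With an ISRE core before the start the median was -0.015 (6 of 12 higher, from -0.52 at Oas3 to 0.31 at Irf2), and without one 0.041 (10 of 15 higher).

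Summing counts over all peaks of a gene gave more precise values for genes with several peaks. For the 10 genes with 1 peak, the sum is that same peak. None of the 37 genes passed (edgeR, adjusted over 13272 genes, 0.369% called), and the smallest adjusted p was 0.325. The interval of the difference lay within 2-fold for 35 of the 37 genes and within 1.5-fold for 31. Ifnar1 alone had an unadjusted p under 0.05, 1 of 37 genes against 11.35% of all genes. Its sums were 242.6, 239.4, 256.9 and 250.2 CPM in WT and 302.9, 241.0 and 294.0 in KO. KO replicates 1 and 3 were above every WT library and KO replicate 2 was among them (log2 fold change 0.18, 95% interval 0.03 to 0.33, edgeR adjusted p = 0.325). The fold changes of the sums ran down to -0.47 for Oasl2 on the log2 scale, and 21 of 37 were above 0.

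Added up by role, the factors had 796.5, 836.4, 807.1 and 836.7 CPM in WT and 852.8, 875.3 and 909.1 in KO, so the groups did not overlap, with a ratio of means of 1.07. The sums of receptors (ratio 1.08), antiviral effectors (1.01), GTPases and antigen-processing genes (1.07) and all members (1.05, from 3100 ± 68.5 to 3270 ± 113 CPM, SD, n = 3 each) overlapped between the groups. For comparison, the summed peaks of Treg and T cell markers each had a ratio of 1.03, those of CD8 and NK cell markers 1.08, myeloid and dendritic cell markers 0.873 and B cell markers 0.741. The part of other cells or of library composition in the factor sums was not tested.

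KO replicate 2 lay nearest the WT libraries at many of these sites. In 7 of the 9 higher peaks among the 10 with the smallest unadjusted p, KO replicate 2 was the lowest KO library. Without KO replicate 2, 17 of 130 tested member peaks (13.1%) had an unadjusted p under 0.05, in place of 8 of 124, and still 0 were called by edgeR. The share of all tested peaks in that fit was 8.76%. Leaving out any other single library gave 5.47% to 9.24% of member peaks with such a p. The fit without KO replicate 2 is thus the extreme among these, and that library was looked at because of its place in peaks picked by p. The cause of the rise was not tested.

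Other genes of the pathway, from lists of kinases, sensors and targets, were read in the same way. Of 249 tested peaks of 67 further interferon pathway genes, edgeR called 0, and 14 had an unadjusted p under 0.05 (5.62%), 8 higher and 6 lower, with a median log2 fold change of 0.022. Kinases, STATs and their regulators had 40 of 82 peaks higher, nucleic acid sensors 25 of 47 and other interferon targets 66 of 120. The smallest p values were at Sp100, a nuclear body protein (chr1:85697540-85697819), with 4.65, 6.51, 2.32 and 5.56 CPM in WT and 13.7, 4.88 and 14.6 in KO (log2 fold change 1.24, edgeR adjusted p = 0.288). There too KO replicate 2 lay with the WT libraries. Aim2, a DNA sensor, had 29.7, 37.8, 31.3 and 26.3 CPM in WT and 39.9, 43.9 and 47.9 in KO, without overlap (chr1:173437567-173437903, log2 fold change 0.48, edgeR adjusted p = 0.365). Jak2, a kinase of the gamma receptor, was lower, with 24.2, 11.7, 24.3 and 17.2 CPM in WT and 10.7, 8.54 and 15.6 in KO (chr19:29261657-29262043, log2 fold change -0.75, edgeR adjusted p = 0.376).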

How the data were processed

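For each of 7 ATAC-seq libraries, the deposited table gives raw counts in every peak, as whole numbers. Per the submitters' processing notes, the build was mm10 and the tools were bedtools 2.25.0, MACS2 2.1.1, SAMtools 1.9, Picard 2.9.4, Trimmomatic 0.36 and BWA 0.7.16. The sources used here do not state settings, the merging of peaks or any shift of reads for the transposase. Such a shift would move peak edges by a few bases, and positions are given as deposited, since it is not stated whether starts count from 0 or 1. Between 78% and 86.3% of the counts per library were even, as when both mates of a pair are counted, so counts overstate fragments.

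Genes were placed with the RefSeq table of GRCm38.p6, which gives no exons. Counts were filtered with filterByExpr (minimum count 10, total 15), scaled by TMM (0.985 to 1.013) and tested with edgeR 4.0.16 in R 4.3.3 (robust quasi-likelihood, genotype as the only term, Benjamini-Hochberg adjustment at 0.05). The filter kept 38041 peaks and removed 12172. Alternatives used DESeq2 1.42.0, limma 3.58.1, other scalings and filters, summed or left-out libraries, and other assignments of peaks. The procedure was tested on simulated data. Named peaks were the most abundant of each gene and the 10 with the smallest unadjusted p, likewise 3 of other pathway genes. Start peaks of Ifnar2, Irf1, Oas3 and Psmb8 and the motif results were named outside that rule, after their values were seen. The members and lists were chosen with earlier results of these data known. Tables and plots used Python 3.11.15, pandas 2.3.3, NumPy 2.4.6 and matplotlib 3.10.9.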

Additional observations from a re-analysis of the deposited data

Results flagged for a closer look

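In groups of 4 WT libraries, 52 levels were checked for a library far from the others, and 2 met the limit (a gap to the nearest library, as a share of the group's range, above Dixon's 95% critical value for 4 samples). Chance alone gives about 1 in 20. At the Parp9 peak on chromosome 16 from 35939645, WT replicate 2 had 80.1 CPM and the other WT libraries 51.5 to 56.2. For the summed peaks of the GTPase and antigen-processing genes, WT replicate 3 had 559.9 CPM and the others 517.2 to 524.1. WT replicates 2 and 3 are averaged in the mean ± SD, so neither value stands alone there, and the WT SD of the Parp9 peak is 5.88 that way and 13.1 over the 4 libraries.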

How the results depend on the processing

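In every alternative run on peaks, with edgeR, DESeq2 or limma-voom, 0 interferon gene peaks were called. On counts summed per gene, where only edgeR was run, 0 of the 37 genes were called in any alternative. The smallest adjusted p of a member peak in any of them was 0.172. Of 788 recomputed values for named peaks and genes, 738 had the same sign and 50 the other, none of the latter above 0.167 in size. The number of called peaks over the whole table was 33, and became 55 with limma-voom, 60 with a mean count of at least 20 and 82 with counts halved. Leaving out 1 library gave 15 to 43 (18 without WT replicate 1, 15 without KO replicate 1, 16 without KO replicate 3). Member peaks with an unadjusted p under 0.05 numbered 13 of 150 with no filter, 5 of 67 with peaks touching the gene only, and 7 to 17 with 1 library left out. The median log2 fold change of member peaks was -0.021 with counts halved. On summed counts, 2 genes had such a p with peaks touching the gene only, and 0 to 3 with 1 library left out (0 without KO replicate 3, 3 without WT replicate 3). Calls over all genes were 49, and 8 to 65 with 1 library left out (8 without KO replicate 3, 12 without KO replicate 1). The cause of these shifts was not tested.

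Replicate numbers did not pair the libraries (correlations of deviations 0.011, -0.012 and 0.004 for the same numbers). With the replicate number as a block, 13 peaks of the whole table and 23 genes were called, and 0 members. The block turned the log2 fold change to 0.049 for Ifnar2, 0.05 for Isg20, -0.062 for Zbp1 and -0.061 for Gbp2.

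Other reversals concerned peaks near 0. Ifnar2 gave 0.02 with limma-voom and 0.005 with no filter. Ifi35 gave -0.011 with library totals or a mean count of at least 20, -0.002 with limma-voom and -0.043 with counts halved. Rsad2 gave -0.024 with loess offsets and -0.008 with counts halved, and Gbp2 -0.021 with counts halved. The Psmb9 and Tap1 interval gave -0.00018 with RLE factors, -0.024 with library totals or a mean count of at least 20, -0.043 with loess offsets and -0.002 with WT replicates 2 and 3 summed. With 1 library left out, the log2 fold change ran from -0.136 to 0.071 for Ifnar2, -0.225 to 0.012 for Irf1, -0.01 to 0.217 for Irf9, -0.162 to 0.074 for Bst2, -0.107 to 0.001 for Ifi27 and -0.131 to 0.204 for Ifi35. It ran from -0.216 to 0.006 for Ifit1, -0.296 to 0.134 for Isg15, -0.116 to 0.069 for Isg20, -0.245 to 0.027 for Mx1, -0.192 to 0.024 for Parp14 and -0.012 to 0.099 for Rsad2. For the rest it ran from -0.167 to 0.289 for Usp18, -0.074 to 0.286 for Zbp1, -0.075 to 0.256 for Gbp2, -0.392 to 0.048 for Igtp, -0.304 to 0.013 for Psmb8 and -0.131 to 0.155 for Psmb9 and Tap1. Counts cover both mates of a pair without molecular identifiers, and how fully the intervals cover the error was not tested. Depth limits single weak peaks most.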
